A study of Mus musculus with 8 samples.

Results

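Leukocytes leave the blood by rolling on the vessel wall, arresting on it and crossing it. The 9 genes described here serve those steps and were chosen by name as adhesion genes, with earlier results of these data known. Selplg, Cd44 and Spn are the rolling and sialomucin genes. Icam1, Icam2, Pecam1 and F11r are immunoglobulin adhesion genes, and Tln1 and Fermt3 are integrin activators. All 9 were found among the 56748 genes listed, and 9 of 9 passed the filter on low counts that kept 11222 genes for testing. The cells were splenic Ly6Chigh monocytes, known as the classical or inflammatory subset in mice, which were sorted 7 days after an aneurysm had been induced. The tested animals were Olfr2 knockout (KO, 4 libraries) and the controls wild type (WT, 4 libraries). Olfr2 encodes an olfactory receptor, and the series addresses its part in monocyte recruitment to abdominal aortic aneurysm. Induction and its day were shared by both genotypes, so no library shows the resting state. No source used here gives the kind of knockout allele, the strain, the age or the way the aneurysm was induced.

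Total counts lay between 17258427 and 21728794 in the KO libraries and between 16111725 and 19048245 in the WT libraries. No label ties a library to an animal of its own, and the p-values below therefore rest on spread among libraries, which may be technical. Column names carry numbers in the 1700s for replicates 3 and 4 of either genotype and in the 1600s for replicates 1 and 2. These are called the 1700 series and the 1600 series, and the labels do not say what they stand for. Ly6c2 was the most abundant of the genes that check the sort, with a mean of 4883 CPM (counts scaled to the library's effective size). Summed over 10 markers each, platelet genes lay between 0.747 and 1.98 CPM in KO and between 1.08 and 1.86 CPM in WT, with Gp1bb, Gp9 and Treml1 at 0 counts. Endothelial genes lay between 0.467 and 1.23 CPM in KO and between 0.442 and 1.13 CPM in WT, with Cdh5, Tek, Emcn, Plvap and Robo4 at 0 counts. T and NK cell genes lay between 3.08 and 4.86 CPM in KO and between 1.44 and 3.03 CPM in WT, with Ncr1 at 0 counts. Nkg7, the 1 of them that was tested, had means of 1.67 CPM in KO and 0.434 CPM in WT. Its log2 difference, KO over WT, was 1.92 ± 0.41 (SE, edgeR adjusted p = 0.0433). Neutrophil markers summed to 2163, 3331, 745 and 575 CPM in KO 1 to 4, against 564, 378, 261 and 490 CPM in WT 1 to 4. In KO 3, KO 4 and WT 1 to 4 Mmp8 made up most of the sum (638, 515, 524, 327, 229.5 and 432 CPM). Ngp had 108 and 86.8 CPM in KO 1 and KO 2. In the other libraries it had at most 1.54 CPM. Classical monocyte markers summed to between 31586.4 and 60258.5 CPM in KO and between 19977.7 and 25594.7 CPM in WT. Chil3 was the highest of these, with means of 28529.7 CPM in KO and 10796.8 CPM in WT. It alone of the 10 had all KO libraries above all WT libraries, so the gap between the sums does not describe the list. Fn1 had all KO libraries below all WT libraries, with means of 54.9 CPM in KO and 118 CPM in WT. Of the 10 markers, 3 had a negative log2 difference, KO over WT, and the median was 0.14. Nonclassical monocyte markers, a list of 12 that holds Spn, summed to between 445 and 717 CPM in KO and between 787 and 900 CPM in WT. Without Cebpb, left out after its values were seen, the sums were 385 to 600.4 CPM in KO and 547 to 656 CPM in WT and overlapped. Of the 12 markers, 3 had all KO libraries below all WT libraries (Pou2f2, Itgal and Cebpb), against 6.06% of tested genes. All 12 had a negative log2 difference, KO over WT, with a median of -0.59, against -0.0038 over all tested genes.

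As background, rolling starts when selectins on the endothelium catch sugars carried by mucin-like proteins on the leukocyte. Chemokine signals then act through the small GTPase Rap1 to bring talin and kindlin to the tails of integrin beta chains, which lets integrins such as LFA-1 and Mac-1 bind ICAM proteins firmly. The cell finally passes between or through endothelial cells, guided by junctional proteins such as PECAM-1 and JAM-A that bind their own kind on the neighbouring cell. Monocytes carry several of these junctional and ICAM proteins themselves.

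Per length of transcript, Selplg was the most abundant of the 9 genes and Pecam1 the least. Levels here are CPM per kilobase of the union of annotated exons. Selplg stood at 66.9 ± 8.92 in KO and 75.7 ± 12.3 in WT (SD, n = 4 each). F11r followed at 42.8 ± 20.9 in KO and 36.3 ± 19.5 in WT, then Icam2 at 36.2 ± 5.73 in KO and 33.8 ± 3.22 in WT, and Cd44 at 26.7 ± 3.07 in KO and 27.7 ± 3.25 in WT. These 4 genes lay between the 82.8 and 91.8 percentiles of all tested genes with a length. Fermt3 (13.9 ± 1.43 in KO, 16.6 ± 3.03 in WT) and Icam1 (13.2 ± 3.73 in KO, 16.2 ± 4.10 in WT) came next. Tln1 stood at 1.05 ± 0.09 in KO and 2.49 ± 1.08 in WT, and Spn at 1.505 ± 0.22 in KO and 1.61 ± 0.34 in WT. Pecam1 was at 0.138 ± 0.04 in KO and 0.118 ± 0.02 in WT, the 6.31 and 3.18 percentiles of tested genes. Library ranges of F11r and Icam2, of Icam2 and Cd44, and of Fermt3 and Icam1 overlapped in both genotypes, so these neighbours in the order were not separated by their spread. Tln1 and Spn overlapped in WT and not in KO, where Spn was the higher. Selplg and F11r overlapped in KO and not in WT. With the longest annotated transcript as length, Icam2 stood above F11r in the mean over 8 libraries (52.0 and 41.8 CPM per kilobase).

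**Figure D1:**
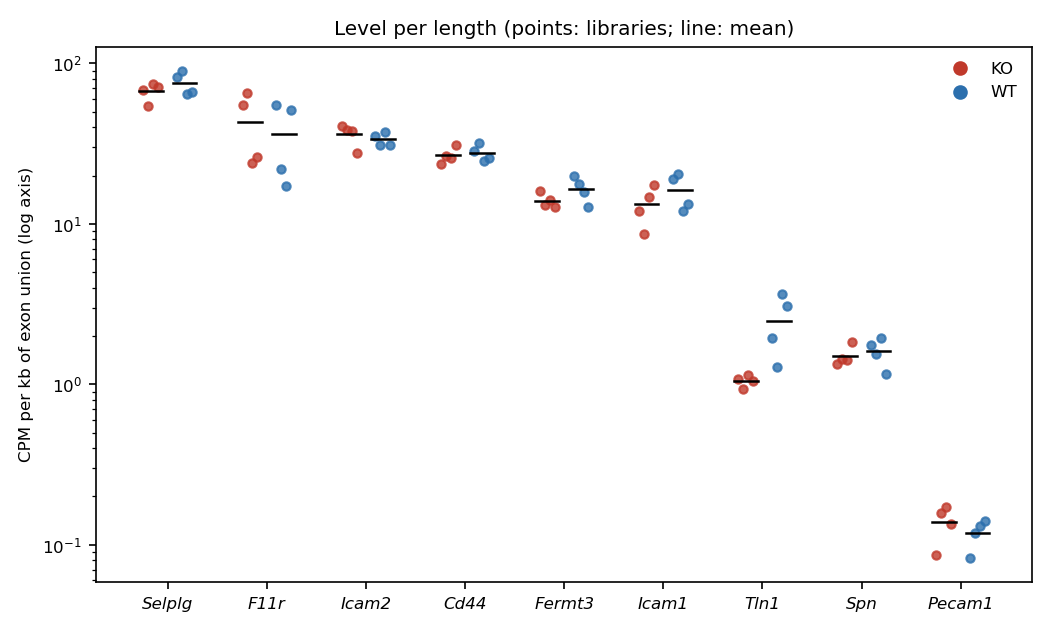
Level of the 9 genes per length, in CPM per kilobase of exon union on a log axis, with the KO libraries (red) left of the WT libraries (blue) for each gene; points are libraries and lines are means. The other genes lie above 8 CPM per kilobase in every library, while Tln1, Spn and Pecam1 lie below 4, and Tln1 has its 4 KO points below its 4 WT points.

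The first comparison asked whether any of the 9 transcripts differed between KO and WT. None passed an adjusted p of 0.05 over all tested genes (edgeR quasi-likelihood test, Benjamini-Hochberg), where 1.06% of tested genes passed. At an unadjusted p under 0.05, 1 of 9 did (Tln1), against 20.9% of tested genes. DESeq2 called 1 of the 9, again Tln1, against 6.28% of its tested genes, and limma-voom called 0 of the 9 (0.00% of tested genes), with 1 of 9 and 21.1% at an unadjusted p under 0.05. Tln1 was also the single gene of the 9 whose KO and WT libraries did not overlap, against 11.4% of tested genes. The median log2 difference, KO over WT, was -0.09 over the 9 genes and -0.0038 over all tested genes. In sorted bulk RNA, fewer cells that carry a transcript and less transcript per cell cannot be told apart.

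**Figure D2:**
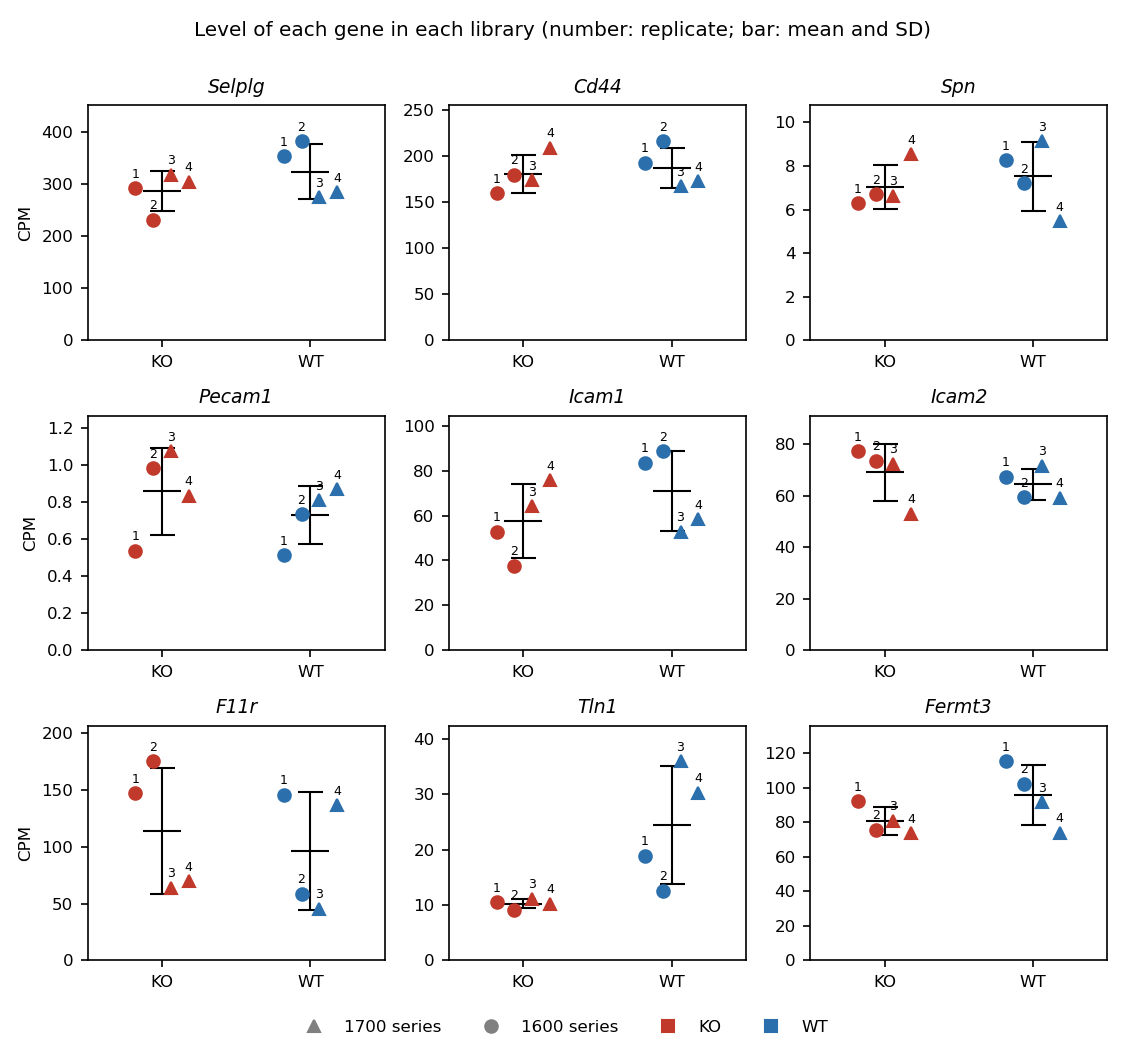
CPM of each of the 9 genes in each library, KO left and WT right, with the replicate number beside each point, triangles for the 1700 series, circles for the 1600 series, and the mean with SD as bars; axes start at 0 and differ between genes. Tln1 is the single gene with all KO points below all WT points, F11r spreads over a wide range in both genotypes, and Icam1 and Selplg show the KO circles below and the KO triangles above the WT points of the same shape.

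Of the rolling genes, Selplg (ENSMUSG00000048163; GRCm38 chromosome 5, 113818536 to 113832644, minus strand) encodes PSGL-1, the main ligand of P-selectin on leukocytes, which also binds E-selectin. It had 291, 231, 317 and 304 CPM in KO 1 to 4, against 353, 381, 274 and 284 CPM in WT 1 to 4. KO 2 was the lowest library and WT 2 the highest, and the genotypes overlapped. The log2 difference was -0.18 ± 0.14 (SE, 95% interval -0.48 to 0.13, edgeR adjusted p = 0.494). With offsets for transcript length and GC content in each library it was -0.30 ± 0.13 (edgeR adjusted p = 0.241).

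Cd44 (chromosome 2, 102811141 to 102901665, minus strand) encodes the receptor for hyaluronan, whose glycoforms also bind E-selectin. Its levels were 160, 180, 174 and 210 CPM in KO 1 to 4 and 193, 216, 168 and 173 CPM in WT 1 to 4. The ranges nearly coincided, and the coefficient of variation was 11.5% in KO and 11.7% in WT, so that the log2 difference of -0.05 ± 0.12 was held within -0.32 to 0.22 (SE, 95% interval, edgeR adjusted p = 0.844). Spn (chromosome 7, 127132232 to 127137823, minus strand) encodes the sialomucin CD43, a large negatively charged surface protein that is denser on nonclassical than on classical monocytes. It was scarce, with 6.29, 6.70, 6.63 and 8.54 CPM in KO 1 to 4 and 8.27, 7.22, 9.13 and 5.46 CPM in WT 1 to 4. WT 4 was the lowest and WT 3 the highest of the 8. The log2 difference was -0.09 ± 0.20 (SE, 95% interval -0.52 to 0.34, edgeR adjusted p = 0.822).

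Icam1 (ENSMUSG00000037405; chromosome 9, 21015985 to 21028817, plus strand) encodes the inducible ligand of LFA-1 and Mac-1, a textbook target of NF-kB and interferon signals. Its levels were 52.8, 37.6, 64.0 and 75.8 CPM in KO 1 to 4, against 83.5, 88.5, 52.7 and 58.3 CPM in WT 1 to 4. KO 1 and KO 2 were low and KO 4 high among the KO libraries, while WT 1 and WT 2 were the highest of all 8. Over all libraries the log2 difference was -0.30 ± 0.22 (SE, 95% interval -0.79 to 0.19, edgeR adjusted p = 0.473), which joins opposite differences in the 2 number series described further on. An antisense gene model, Gm47079, shares 511 exon bases with Icam1 and had 0 counts.

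The start region of Icam1 is shown because Icam1 alone of the 9 genes passed the test for a KO-over-WT difference that changed between the number series. It comes from RefSeq (GRCm38.p6), covers chr9:21015690-21015989 on the plus strand, and runs from 250 bases before to 50 bases after the RefSeq start. The GENCODE gene, whose coordinates are given above, starts 45 bases further on. Capitals mark, from left to right, an NF-kB motif (GGAAATTCC), a STAT motif (TTCCNGGAA) and a TATA box (TATAAA). They begin 153 bases before, 42 bases before and at base 14 after the RefSeq start, and 198, 87 and 32 bases before the GENCODE start.
Icam1: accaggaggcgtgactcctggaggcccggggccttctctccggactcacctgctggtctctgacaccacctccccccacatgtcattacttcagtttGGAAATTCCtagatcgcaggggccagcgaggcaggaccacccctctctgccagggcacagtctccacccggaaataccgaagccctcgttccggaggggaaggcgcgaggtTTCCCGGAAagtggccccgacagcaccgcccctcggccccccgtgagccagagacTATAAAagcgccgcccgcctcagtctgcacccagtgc
Searched on both strands, these motifs occur in 0.317%, 1.15% and 13.6% of 32851 RefSeq start regions of the same length, and none of the 3 matches overlaps another. A start region was matched for 6 of the 9 genes, and in these the 3 motifs occurred in Icam1 alone. The motifs were chosen with the sequences in view, so these shares and counts describe the region and test nothing. The letters describe the sequence, and nothing measured here tells whether a factor binds them.

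Icam2 (chromosome 11, 106377656 to 106388075, minus strand) encodes a constitutive LFA-1 ligand. It had 77.1, 73.5, 72.4 and 52.9 CPM in KO 1 to 4 and 67.3, 59.3, 71.6 and 59.1 CPM in WT 1 to 4. KO 4 was the lowest of the 8 and the other KO libraries the 3 highest. The log2 difference was 0.10 ± 0.14 (SE, 95% interval -0.20 to 0.40, edgeR adjusted p = 0.720). Pecam1 lies 266 kb from Icam2 on the same chromosome (106654217 to 106750628, minus strand) and encodes CD31, which binds CD31 on the endothelial side during transmigration. It had 9, 16, 23 and 18 counts in KO 1 to 4 and 10, 15, 15 and 14 counts in WT 1 to 4, which is 0.539 to 1.07 CPM in KO and 0.514 to 0.869 CPM in WT. A count of 0 would allow up to 0.139 to 0.186 CPM in these libraries, for counting error only, so the transcript was detected in each. At this depth the log2 difference of 0.24 ± 0.36 had a 95% interval from -0.53 to 1.01 (SE, edgeR adjusted p = 0.741), which spans both directions.

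F11r (ENSMUSG00000038235; chromosome 1, 171437535 to 171464603, plus strand) encodes JAM-A, a junctional protein that binds itself and LFA-1. It varied more than any other of the 9 genes, with a coefficient of variation of 48.8% in KO and 53.6% in WT. KO 1 to 4 had 147, 175, 64.0 and 69.9 CPM, against 146, 58.6, 45.6 and 136 CPM in WT 1 to 4. No library of either genotype lay between 69.9 and 136 CPM, and each genotype had 2 libraries on either side of that gap. The log2 difference of 0.24 ± 0.52 therefore had a 95% interval from -0.99 to 1.47 (SE, edgeR adjusted p = 0.831). 2 single markers of other cells followed the same divide in the opposite sense. Cd209a, a dendritic cell marker also found on some monocytes, had 69.9, 51.2, 460.4 and 423 CPM in KO 1 to 4 and 159, 382, 285 and 172 CPM in WT 1 to 4. Cd79b, a B cell receptor gene, had 17.1, 17.1, 33.4 and 31.9 CPM in KO 1 to 4 and 20.9, 35.0, 35.0 and 16.1 CPM in WT 1 to 4. In the summed rest of either list the libraries on either side of the gap overlapped. All dendritic cell markers together summed to 231, 162, 614 and 576 CPM in KO 1 to 4 and to 375, 583, 511 and 416 CPM in WT 1 to 4, with Siglech at 0 counts, and without Cd209a to 110 to 161 CPM in KO and 200.4 to 244 CPM in WT. Most of that rest was a single gene, Bst2, with means of 124 CPM in KO and 203 CPM in WT. Its log2 difference was -0.71 ± 0.14 (SE, edgeR adjusted p = 0.0377). Of the 10 dendritic cell markers, Bst2 alone had all KO libraries below all WT libraries. Flt3, the next in level, had a log2 difference of 0.18 ± 0.16 (SE). All B cell markers summed to 17.4, 17.7, 34.1 and 33.1 CPM in KO 1 to 4 and to 21.1, 36.0, 35.9 and 16.9 CPM in WT 1 to 4, with Pax5, Vpreb3 and Blk at 0 counts, and without Cd79b to at most 1.21 CPM in KO and 0.933 CPM in WT. The part of these cells in the F11r values was not tested.

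Tln1 (ENSMUSG00000028465; chromosome 4, 43531519 to 43562691, minus strand) encodes talin-1, the cytoskeletal protein whose binding to the integrin beta tail is the last step of integrin activation. Its levels were 10.5, 9.17, 11.2 and 10.2 CPM in KO 1 to 4, against 18.9, 12.6, 36.0 and 30.3 CPM in WT 1 to 4. All 4 KO libraries lay below all 4 WT libraries, as for 6.06% of tested genes. The KO libraries were nearly equal (coefficient of variation 8.14%), while the WT libraries were not (43.4%), and WT 2 lay close to the KO libraries. The log2 difference was -1.25 ± 0.27 (SE, 95% interval -1.85 to -0.65, unadjusted p = 0.000684, edgeR adjusted p = 0.0528), just short of the threshold. It passed in 6 of 23 other fits, among them DESeq2 (adjusted p = 0.00100), edgeR with the number series as covariate (-1.16 ± 0.22, adjusted p = 0.0254, where 2.24% of tested genes passed) and edgeR without WT 2 (-1.46 ± 0.21, adjusted p = 0.00457). Fits that left out 1 library gave values from -1.46 without WT 2 to -0.999 without WT 3.

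Tln1 also has the longest transcript of the 9 genes, 8393 bases in 57 exons, with a GC content of 57.0%. The 1097 tested genes with the longest transcripts, from 6253 bases up, had a median log2 difference of -0.34. Measured in each library against all other genes, on the log2 scale, this class was at -0.26, -0.16, -0.13 and -0.08 in KO 1 to 4 and at 0.24, -0.09, 0.27 and 0.32 in WT 1 to 4. WT 2 was thus the lowest WT library both in this measure and in Tln1. The measure averaged -0.16 ± 0.07 in KO and 0.19 ± 0.19 in WT (SD, n = 4 each), with a two-sided p = 0.0571 in the exact permutation test, where the smallest possible is 0.0286. The corresponding measure for the 10% of genes with the highest GC content averaged -0.19 ± 0.19 in KO and 0.20 ± 0.11 in WT (SD, n = 4 each), with a two-sided p = 0.0286 in the exact permutation test. Adjusted over these 2 measures, both had p = 0.0571 (exact permutation). With per-library offsets for length and GC content, the Tln1 difference was -0.53 ± 0.22 (SE, unadjusted p = 0.0336, edgeR adjusted p = 0.241), in a fit where 0.00912% of tested genes passed. With the number series added as covariate it was -0.48 ± 0.17 (edgeR adjusted p = 0.182), where 0.720% passed. The median of the longest class was -0.06 with the offsets alone. The offsets were fitted to length and GC content together. How much of the Tln1 difference goes with transcript length, with GC content or with genotype cannot be told apart in these 8 libraries.

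**Figure D3:**
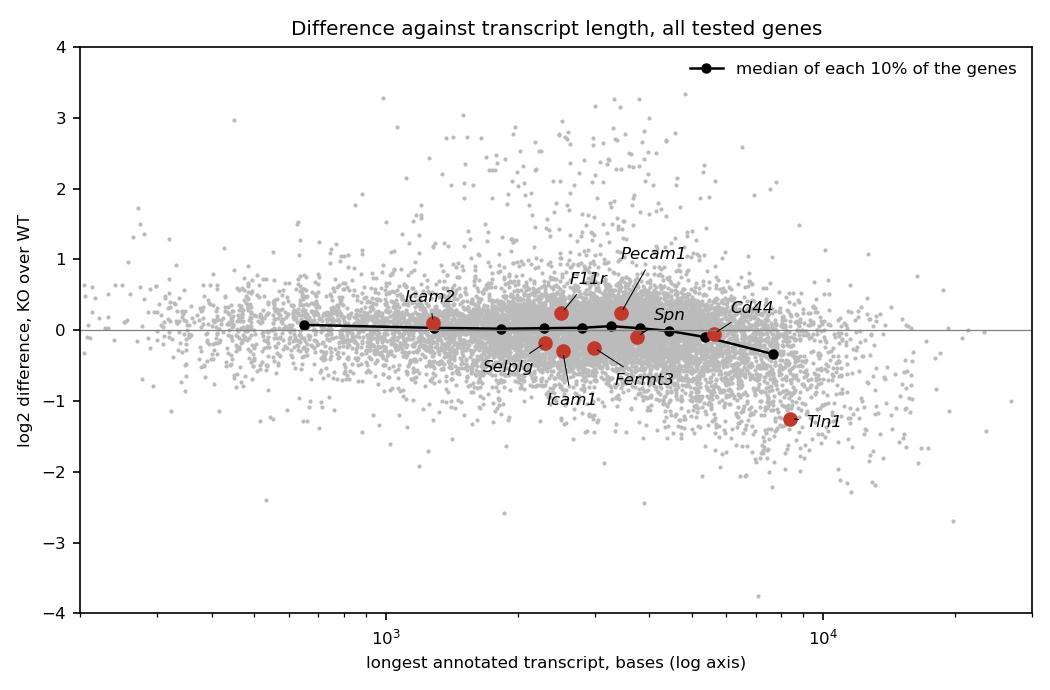
Log2 difference, KO over WT, of tested genes against the length of their longest annotated transcript (log axis), with medians over 10 classes of equal gene number in black and the 9 named genes in red; 35 genes lie outside the axes. The medians lie between -0.0095 and 0.07 in the 8 classes of shorter transcripts, and the longest class is at -0.34, where Tln1 lies below it at -1.25.

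Tln1 shares 360 exon bases with Creb3 on the opposite strand. Creb3 had 157 CPM in KO and 151 CPM in WT, with a log2 difference of 0.06 ± 0.12 (SE, edgeR adjusted p = 0.820). Whether the counting used strand is not given in the sources used here, so reads in the shared bases cannot be assigned. The summed nonclassical monocyte markers given above were also lower in every KO library than in every WT library, though not without Cebpb, and their part in the Tln1 values was not tested.

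The start region of Tln1 is shown for comparison with that of Icam1, as the other gene with a difference to report. It covers chr4:43562534-43562833 on the minus strand (RefSeq, GRCm38.p6), written in the direction of transcription, and capitals mark 2 ETS motifs (CGGAAGT). They begin 51 bases before the RefSeq start and at base 5 after it. The GENCODE gene starts 108 bases earlier, so that by its coordinates both lie within the gene, at bases 58 and 113.
Tln1: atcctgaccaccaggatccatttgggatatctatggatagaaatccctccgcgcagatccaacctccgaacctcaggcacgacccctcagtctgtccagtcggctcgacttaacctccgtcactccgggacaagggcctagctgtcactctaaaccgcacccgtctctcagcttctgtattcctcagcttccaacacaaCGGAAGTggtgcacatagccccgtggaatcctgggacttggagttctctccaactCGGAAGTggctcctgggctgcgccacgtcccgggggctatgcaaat
On both strands the ETS motif occurs in 6.42% of the 32851 start regions and in 1 of the 6 matched here. This motif, too, was chosen with the sequences in view, so the share is no test. The Tln1 region holds none of the 3 motifs marked in Icam1, which says only that those letters are not in this window.

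Fermt3 (chromosome 19, 6998958 to 7019469, minus strand) encodes kindlin-3, the blood-cell kindlin that acts with talin on the integrin beta tail. It had 92.2, 75.7, 80.9 and 73.8 CPM in KO 1 to 4 and 115, 102, 91.6 and 73.9 CPM in WT 1 to 4. WT 1 and WT 2 were the highest, while WT 4 lay among the KO libraries. The log2 difference was -0.25 ± 0.14 (SE, 95% interval -0.56 to 0.06, edgeR adjusted p = 0.336), and -0.015 ± 0.12 with the length and GC offsets. Fermt3 shares 89 exon bases with Trpt1 on the opposite strand, which had 109 counts in all 8 libraries together.

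The second comparison asked whether the KO-over-WT difference was the same in both number series, each with 2 libraries per genotype. Icam1 was the 1 gene of the 9 whose difference between the series passed the test. Its log2 difference was 0.33 ± 0.16 within the 1700 series and -0.94 ± 0.19 within the 1600 series (SE). In the 1700 series both KO libraries (64.0 and 75.8 CPM) lay above both WT libraries (52.7 and 58.3 CPM), and in the 1600 series both KO libraries (52.8 and 37.6 CPM) lay below both WT libraries (83.5 and 88.5 CPM). The difference between the series was 1.26 ± 0.26 on the log2 scale (SE, edgeR genotype-by-series term, adjusted p = 0.0493, where 0.784% of tested genes passed). That call stood at the threshold and was lost in 9 of 16 other fits, among them those without KO 2, KO 3, KO 4, WT 1, WT 2 or WT 3, with adjusted p-values from 5.54e-05 without a filter on low counts to 0.287 without KO 4. Without KO 4 the term was 1.14 ± 0.31, and with the length and GC offsets 1.20 ± 0.23 (edgeR adjusted p = 0.0646, where 11 genes passed). Within a single series the Icam1 difference did not pass (edgeR adjusted p = 0.277 in the 1700 series and 0.0648 in the 1600 series).

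The same arrangement, both KO libraries above both WT libraries in the 1700 series and below them in the 1600 series, was found in Selplg and Cd44 as well. It thus held for 3 of 9 genes, against 5.38% of tested genes. The arrangement was taken from the Icam1 result and the count includes Icam1 itself, so the comparison is a description and not a test. For Selplg the series differed by 0.65 ± 0.20 on the log2 scale (SE, 95% interval 0.22 to 1.08, edgeR adjusted p = 0.138) and for Cd44 by 0.44 ± 0.20 (95% interval -0.00017 to 0.87, edgeR adjusted p = 0.310), neither past the threshold. Over the 8 libraries log2 CPM of Selplg and Icam1 had a Pearson correlation of 0.95, the highest of the 36 pairs among the 9 genes, given as a description of libraries that share their depth and their series. Summed neutrophil markers were highest and Cd209a lowest in KO 2 and KO 1, where Icam1 was lowest among the KO libraries. Among the WT libraries Icam1 was lowest in WT 3 (52.7 CPM). There the neutrophil sum was the lowest of the 8 libraries (261 CPM, mostly Mmp8) and Cd209a was at 285 CPM. The part of those markers in the Icam1 values was not tested.

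Tln1 was lower in KO within each series. Its log2 difference was -1.63 ± 0.21 in the 1700 series (edgeR adjusted p = 0.0309, where 1.16% of tested genes passed) and -0.69 ± 0.25 in the 1600 series (edgeR adjusted p = 0.193, where 0.873% passed). The term for the difference, -0.96 ± 0.33, did not pass (edgeR adjusted p = 0.177). F11r had -0.43 ± 0.52 in the 1700 series and 0.64 ± 0.48 in the 1600 series, and a term of -1.10 ± 0.93 (edgeR adjusted p = 0.635). Terms of Icam2, Fermt3, Spn and Pecam1 lay between -0.31 and 0.31, with edgeR adjusted p-values from 0.591 to 0.972.

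**Figure D4:**
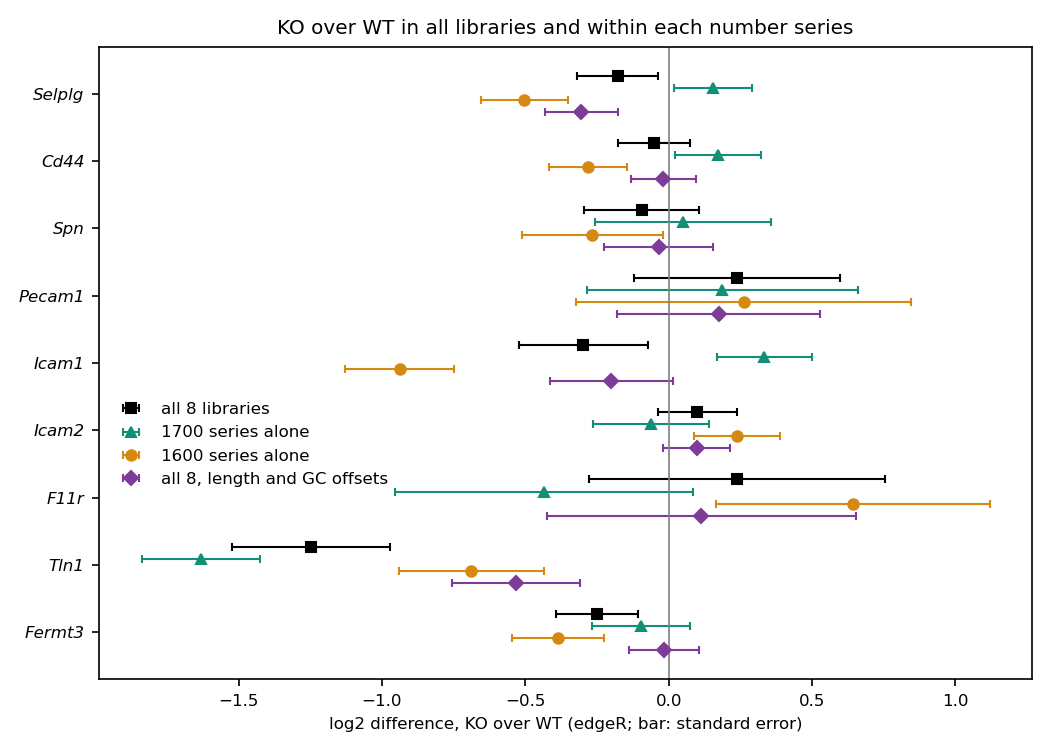
Log2 difference, KO over WT, of each gene with its standard error from edgeR, in all 8 libraries (black squares), in the 1700 series alone (green triangles), in the 1600 series alone (orange circles) and in all 8 libraries with length and GC offsets (purple diamonds). Icam1 stands at 0.33 in the 1700 series and -0.94 in the 1600 series, and Tln1 moves from -1.25 to -0.53 with the offsets.

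The neighbouring steps of the pathway were read from 6 lists of 113 genes, of which 84 passed the filter on low counts. Slk and Flna fell in KO and no listed gene rose, so that 2 of 84 passed (edgeR, adjusted p under 0.05), against 1.06% of tested genes. None of the 84 passed when KO 1, KO 2, KO 3, WT 1, WT 3 or WT 4 was left out, and 12 passed without WT 2. The median log2 difference of the 84 was -0.19 and 59 were negative, against a median of -0.0038 and 5661 negative of 11222 tested genes. These values are without the length and GC offsets, and whether the shift of the lists holds with them was not tested. With the offsets, 0 listed genes passed.

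Among selectins and the enzymes that build their ligands, 0 of 13 tested genes passed, with a median of -0.21. The smallest p-values belonged to St3gal3, a sialyltransferase (-0.63 ± 0.24, edgeR adjusted p = 0.160), Tpst2, which sulfates tyrosines such as those of PSGL-1 (-0.40 ± 0.16, adjusted p = 0.183), and Fut7, the leukocyte fucosyltransferase that completes selectin ligands (-0.61 ± 0.26, adjusted p = 0.201). With the length and GC offsets these were -0.36 ± 0.23, -0.09 ± 0.12 and -0.38 ± 0.24. The endothelial selectin genes Selp and Sele did not reach the filter.

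Of the proteins that link these receptors to the cortex, 1 of 9 tested genes passed, with a median of -0.08. Slk, an ERM-phosphorylating kinase, fell to 4.00 ± 0.45 CPM in KO, against 11.4 ± 4.69 CPM in WT (SD, n = 4 each), a log2 difference of -1.51 ± 0.29 (SE, edgeR adjusted p = 0.0379). After the length and GC adjustment it was -1.29 ± 0.26 and did not pass (edgeR adjusted p = 0.0795). Junctional partners had 0 of 9 tested genes past the threshold and a median of -0.09. Vcam1, the ligand of VLA-4, came nearest with 0.89 ± 0.26 (adjusted p = 0.0983), followed by Cd226, a receptor for nectin-like proteins (1.23 ± 0.54, adjusted p = 0.220), and Sirpa, the receptor for CD47 (-0.24 ± 0.17, adjusted p = 0.432, and -0.11 ± 0.15 with the offsets). Jam3, Cdh5, Icam4 and Tjp1 had 0 counts.

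Upstream of talin and kindlin, 0 of 19 tested genes passed, 15 were negative, and the median was -0.24. The Rap1 exchange factor genes Rapgef1 (-1.31 ± 0.36, edgeR adjusted p = 0.0801) and Rapgef2 (-1.13 ± 0.33, adjusted p = 0.0958) and Apbb1ip, which encodes the RIAM adaptor that brings talin to Rap1 (-0.72 ± 0.20, adjusted p = 0.0831), had the smallest p-values. With the length and GC offsets these were -0.82 ± 0.34, -0.88 ± 0.31 and -0.92 ± 0.20. The other kindlin genes Fermt1 and Fermt2 had 0 counts, and Tln2 did not reach the filter. Downstream of integrins 1 of 24 tested genes passed, with a median of -0.16. Flna, the gene of the actin crosslinker filamin A, which competes with talin for the beta tail, fell to 19.9 ± 2.98 CPM in KO, against 41.3 ± 12.2 CPM in WT (SD, n = 4 each), and its log2 difference was -1.05 ± 0.20 (SE, adjusted p = 0.0370 by edgeR). Adjustment for length and GC content left -0.50 ± 0.17, which did not pass (edgeR adjusted p = 0.157).

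Integrin chains had 0 of 10 tested genes past the threshold. Itga4, which encodes the VLA-4 alpha chain (-0.69 ± 0.16, edgeR adjusted p = 0.0569) and Itgal, which encodes the LFA-1 alpha chain (-0.58 ± 0.16, adjusted p = 0.0773), were the nearest, and had -0.39 ± 0.12 and -0.37 ± 0.14 with the offsets. Itgam was at 0.07 ± 0.20, and the shared beta chains at 0.16 ± 0.15 for Itgb2 and 0.34 ± 0.18 for Itgb1 (adjusted p-values from 0.287 to 0.876). With the offsets Itgam was at 0.10 ± 0.18 and Itgb1 at 0.21 ± 0.14.

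For each of the 9 genes, the 2 others most like it over the 8 libraries were sought by Pearson correlation of log2 CPM among 6424 or 6425 genes with a mean of at least 5 CPM. Tln1 was most like Rere (0.97) and Naxd (0.97), Icam1 most like Tgtp2 (0.97) and Il1rn (0.97), and Selplg most like Akap8l (0.99) and Lgals3bp (0.96). F11r was most like Jaml (0.97) and Il1r2 (0.95), and Fermt3 most like Pstpip1 (0.97) and Spns3 (0.95). Cd44 was most like Rnf145 (0.93) and Tmem186 (0.93), Spn most like Ctc1 (0.94) and Tusc2 (0.89), Icam2 most like Dynlt1b (0.91), and Pecam1 most like Rexo2 (0.89) and Alkbh3 (0.88). These are descriptions over 8 libraries that share depth, genotype and series, and Rere alone of the genes named in this comparison passed in KO against WT (log2 difference -1.49 ± 0.32, SE, edgeR adjusted p = 0.0469).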

How the data were processed

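RNA of sorted monocytes was made into cDNA with oligo-dT priming and template switching (SMART-Seq v4), per the labels' protocols. What the authors deposited is a single table with the raw count of reads for every gene in 8 libraries. Per the submitters' processing notes the tools were HISAT2 2.0.5 and featureCounts 1.5.0-p3, with genome build GRCm38. No source used here gives their settings, the annotation release or the strand mode. Priming at the poly(A) tail and PCR can favour transcripts by length and integrity, and without molecular identifiers PCR copies of a molecule count more than once, so limits from counting cover counting error only.

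Groups follow the titles, 4 KO and 4 WT. Library pairs of a genotype differed by more than sampling noise (chi-square per degree of freedom 15.0 to 69.4), and each was taken as 1 replicate. Counts were tested with edgeR 4.0.16 (filterByExpr, TMM, robust quasi-likelihood, R 4.3.3), adjusted over all 11222 tested genes, which hold 99.9% of counts. Lengths, GC content and coordinates come from GENCODE M21 (GRCm38), with values for 97.7% of tested genes. Offsets for length and GC content were smooth fits per library (mgcv 1.9.3) to log2 CPM (prior count 2). Alternatives used DESeq2 1.42.0, limma 3.58.1, other filters, scalings, covariates and libraries. The series covariate combined with offsets was chosen after seeing the data. The code was tested on simulated data. The members and lists were chosen with earlier results of these data known. Named list genes are those past the threshold, or otherwise the 3 smallest p-values of a list, and 5 preset integrin chains; motifs were chosen with the sequences in view. Of the genes this rule and the search for like genes named, some are not reported here.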

Additional observations from a re-analysis of the deposited data

Results flagged for a closer look

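The KO-over-WT difference of Icam1 differed between the number series by 1.26 on the log2 scale (1700 minus 1600, edgeR genotype-by-series term, adjusted p = 0.0493), with 2 of 2 KO libraries above both WT libraries in the 1700 series and 2 of 2 below them in the 1600 series. Of 22 groups of 4 values checked for a single library far from the rest (9 genes and 2 library measures in each genotype), none held one.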

How the results depend on the processing

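The count of genes past an adjusted p of 0.05 in KO against WT, 119 with edgeR, was 742 without a filter on low counts, 763 with DESeq2, 0 with limma-voom, 251 with the number series as covariate, 1 with the length and GC offsets, 79 with both, 7 without KO 1 and KO 2, 0 at an adjusted p of 0.01 and 611 at 0.1. Leaving out 1 library gave 0 (without KO 2, KO 3, WT 1 or WT 3) to 515 (without WT 2), with 64, 235 and 3 without KO 1, KO 4 and WT 4. At an unadjusted p under 0.05 edgeR had 2344 genes and limma-voom 2371. The replicate numbers of the titles share only a number (correlations of same-numbered libraries -0.05 to 0.09). With them as a replicate block 244 genes passed, Tln1 among them (-1.15 ± 0.23, edgeR adjusted p = 0.0334), and 166 with block and offsets, where Tln1 did not (-0.47 ± 0.19, adjusted p = 0.256). The genotype-by-series term passed in 88 genes, and in 645 without a filter, 5 without robust shrinkage, 416 with DESeq2, 57 with limma-voom, 11 with the offsets, and 3 (without KO 4) to 628 (without WT 4) with 1 library left out, where the lone library of a cell is assumed to vary like the others. Of the pathway lists 2 genes passed, and 9 without a filter, 8 with DESeq2, 0 with limma-voom, the offsets, the 1600 series alone or without KO 1 and KO 2, 1 with the block, the block with offsets or the series covariate with offsets, and 0 to 12 with 1 library left out. The cause of these changes was not tested.

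Signs turned for 6 of the 9 genes. In the 1700 series alone the log2 difference was 0.16 for Selplg, 0.17 for Cd44, 0.051 for Spn, 0.33 for Icam1, -0.060 for Icam2 and -0.43 for F11r. Without KO 1 and KO 2 it was 0.043 for Cd44, 0.023 for Spn, -0.026 for Icam2 and -0.52 for F11r, and with series covariate and offsets -0.021 for F11r. With 1 library left out, Cd44 ranged from -0.14 to 0.027, Spn from -0.22 to 0.012 and F11r from -0.041 to 0.51, and the series term ranged from -0.012 to 0.73 for Spn and from -0.46 to 0.40 for Pecam1. Tln1 and Fermt3 stayed negative and Pecam1 positive in each of these fits that tested it. The longest-transcript measure, KO minus WT, was -0.25 without a filter (exact permutation p = 0.0286) and -0.45 to -0.30 with 1 library left out, and the GC measure -0.48 to -0.34. Depth limits Pecam1, with 9 to 23 counts per library.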
